A study of Mus musculus with 7 samples.

Results

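Ighv1-5, Ighv1-22, Ighv1-26 and Ighv3-6 are 4 heavy chain variable (V) genes of the mouse Igh locus whose read counts were lower in B cells without Batf. They were chosen by name from the authors' deposited table, and so by measured values of the contrast described here: the table lists genes with a false discovery rate (FDR) under 0.05 between the genotypes, and these 4 have the lowest FDR among its 14 heavy chain V genes. The table holds 752 genes of the 19734 that the authors adjusted over. The differences between the genotypes are therefore given as descriptions, with no test.

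The B cells came from 3 Batf KO mice and 4 wild-type mice, all on a C57BL/6J background. In both groups B cells were isolated from the spleen on magnetic columns and cultured for 6 h with 20 µg/mL lipopolysaccharide, a bacterial ligand of TLR4, together with 20 ng/mL interleukin-4. Total RNA was then sequenced as paired-end libraries, each taken here as 1 mouse. The labels describe neither the Batf allele nor the age of the mice, and no unstimulated culture was analysed here. BATF belongs to the AP-1 transcription factors, pairs with JUN proteins and binds DNA beside IRF4 or IRF8, and the study asked which transcripts it controls on the way to class switch recombination.

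A heavy chain V gene carries a leader exon and a V exon that encodes most of the antigen-binding domain. In a developing B cell, RAG1 and RAG2 join 1 V gene to a diversity and a joining segment, and the promoter of the chosen V gene then drives a transcript that is spliced to the constant exons of Ighm, which encodes the IgM heavy chain. Each B cell therefore uses mainly a single V gene, and the V gene reads of a spleen are spread over many clones. Class switching later exchanges the constant gene and leaves the joined V gene in place. In such bulk libraries, fewer cells that use a V gene and less V gene RNA per cell cannot be told apart.

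The germline V segments are printed because the genes differ in how much sequence they share with their relatives, which bears on how reads can be assigned to them. They were taken from the GENCODE M21 transcripts of GRCm38, the C57BL/6J reference also called mm10, with the segment ends of RefSeq. They run 5′ to 3′ along the minus strand, and capitals mark the 59 positions of 294 at which the 3 Ighv1 genes are not all alike. Ighv3-6 belongs to another family and is shown without capitals. The segments lie at chr12:114513330-114513623 (Ighv1-5), chr12:114746273-114746566 (Ighv1-22), chr12:114788372-114788665 (Ighv1-26) and chr12:114288152-114288447 (Ighv3-6).
Ighv1-5: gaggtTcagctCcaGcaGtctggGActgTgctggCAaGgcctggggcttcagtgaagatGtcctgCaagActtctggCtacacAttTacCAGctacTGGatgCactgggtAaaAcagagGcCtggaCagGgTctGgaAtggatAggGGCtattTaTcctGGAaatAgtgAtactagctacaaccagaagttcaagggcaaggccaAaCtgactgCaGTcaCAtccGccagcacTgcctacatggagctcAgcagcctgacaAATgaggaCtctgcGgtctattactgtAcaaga
Ighv1-22: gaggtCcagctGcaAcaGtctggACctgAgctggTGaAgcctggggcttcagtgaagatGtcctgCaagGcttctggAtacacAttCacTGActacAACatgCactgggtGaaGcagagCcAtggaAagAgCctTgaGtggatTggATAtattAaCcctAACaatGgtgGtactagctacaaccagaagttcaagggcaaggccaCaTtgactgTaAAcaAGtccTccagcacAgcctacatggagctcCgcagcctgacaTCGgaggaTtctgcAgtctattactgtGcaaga
Ighv1-26: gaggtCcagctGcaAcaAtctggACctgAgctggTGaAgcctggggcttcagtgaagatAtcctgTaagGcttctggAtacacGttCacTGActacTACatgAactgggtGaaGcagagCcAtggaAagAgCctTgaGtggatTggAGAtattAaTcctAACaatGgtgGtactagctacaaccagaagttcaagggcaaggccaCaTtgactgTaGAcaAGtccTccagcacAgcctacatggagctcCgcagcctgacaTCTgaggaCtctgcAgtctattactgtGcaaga
Ighv3-6: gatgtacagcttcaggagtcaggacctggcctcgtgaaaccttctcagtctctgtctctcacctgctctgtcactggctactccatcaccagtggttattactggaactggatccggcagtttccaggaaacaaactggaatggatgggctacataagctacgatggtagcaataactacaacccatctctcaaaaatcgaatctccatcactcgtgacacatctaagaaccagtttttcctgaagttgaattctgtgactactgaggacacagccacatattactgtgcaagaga

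Ighv1-22 and Ighv1-26 were 96.3% identical and differed at 11 of 294 bases. Ighv1-5 was farther from both, at 81.6% identity with Ighv1-22 and 82.0% with Ighv1-26. Ighv3-6 shared 57.8% to 59.5% of its bases with the 3 Ighv1 genes. The nearest annotated relative of Ighv1-26 was Ighv1-18, with 8 differing bases, and that of Ighv3-6 was Ighv3-1, with 20. Ighv1-22 stood equally near to Ighv1-18 and Ighv1-34, with 10 differing bases each, while Ighv1-5 had 39 differences to its nearest relatives, Ighv1-7 and Ighv1-12.

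Read assignment was judged by cutting each annotated transcript into windows of 50 bases. Of the Ighv1-26 windows, 148 of 302 (49.0%) occurred without mismatch in another annotated gene, as did 69 of 302 (22.8%) of the Ighv1-22 windows. The shares were 3.3% for Ighv3-6 (10 of 301) and 1.2% for Ighv1-5 (4 of 346). The counts of Ighv1-26 and Ighv1-22 are thus uncertain as counts of single genes, while Ighv3-6 and Ighv1-5 have few such windows. Both kinds of gene were lower in the Batf KO libraries, but all 4 were chosen through that contrast, so nothing is read from this. The sources used here do not say how reads with several matches were counted, and the part of shared sequence in the counts was not tested. Somatic changes of the V exon, which also move a read away from the germline sequence, cannot be seen in gene counts.

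Batf itself measured 66.5 ± 3.49 CPM (read counts scaled to a common library total; SD, n = 3) in Batf KO and 319 ± 11.2 CPM (SD, n = 4) in wild type, with the libraries of each group apart. The effective library totals behind the CPM, inferred as count over CPM, lay between 23675459 and 30844920 in Batf KO and between 24891094 and 44728937 in wild type. Wild-type libraries were alike in pairs: a chi-square statistic of their counts over the listed genes was 18.0 per degree of freedom for replicates 1 and 2 and 20.2 for replicates 3 and 4, against 32.5 to 48.5 for the other wild-type pairs. Among the Batf KO pairs it ran from 16.2 to 23.0. Of 7 B cell marker genes, Ms4a1 (CD20) and Blk, a kinase of B cell receptor signalling, are listed, and their summed level was 943 to 1006 CPM in Batf KO and 607 to 687 CPM in wild type. The other 5 have no value in the table, so the labelled cell type can be checked on these 2 genes only.

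All 4 genes were listed as lower in Batf KO, where 1.86% of the 19734 genes are. For all 4, the highest Batf KO library was below the lowest wild-type library in CPM. This was so for 362 of the 752 listed genes (48.1%), and only 368 of the 752 were lower in Batf KO. Nothing is read from these shares, since the same contrast chose the genes.

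Ighv1-5 (ENSMUSG00000096499, chromosome 12, 114513330 to 114513807, minus strand) was the least abundant of the 4 and had the largest fold difference. Its reads numbered 17, 9 and 12 in Batf KO replicates 1 to 3, against 50, 26, 71 and 37 in wild-type replicates 1 to 4. This gave 0.551, 0.334 and 0.507 CPM in Batf KO, against 1.25, 0.864, 1.59 and 1.49 CPM in wild type. The wild-type library nearest to the Batf KO libraries was replicate 2. The mean was 0.464 ± 0.115 CPM (SD, n = 3) in Batf KO and 1.3 ± 0.321 CPM (SD, n = 4) in wild type, so the Batf KO level was 35.7% of the wild-type level. The log2 fold change was -1.48 with a standard error (SE) of 0.31. With 38 reads in Batf KO and 184 in wild type in all, the ratio of reads per library size was 0.354, with an exact 95% counting interval of 0.243 to 0.504 that covers counting error only.

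Ighv1-22 (ENSMUSG00000094561, chromosome 12, 114746273 to 114746706, minus strand) had 30, 46 and 33 reads in the Batf KO libraries and 135, 62, 152 and 91 reads in the wild-type libraries. Its levels were 0.973, 1.71 and 1.39 CPM in Batf KO, against 3.39, 2.06, 3.4 and 3.66 CPM in wild type. The groups came closest at Batf KO replicate 2 and wild-type replicate 2, and the other 3 wild-type libraries lay close together. The mean was 1.36 ± 0.368 CPM (SD, n = 3) in Batf KO and 3.13 ± 0.721 CPM (SD, n = 4) in wild type, so the Batf KO level was lower by 2.3-fold. The log2 fold change was -1.21 (SE 0.27), and the read ratio was 0.424 with a 95% counting interval of 0.341 to 0.525.

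Ighv1-26 (ENSMUSG00000094546, chromosome 12, 114788372 to 114788805, minus strand) had the most reads of the 4 and the smallest fold difference. It was counted at 167, 233 and 182 reads in Batf KO and at 558, 338, 628 and 288 reads in wild type. Levels were 5.41, 8.65 and 7.69 CPM in Batf KO, against 14.0, 11.2, 14.0 and 11.6 CPM in wild type. Batf KO replicate 1 was the lowest library and stood apart from the other 2 Batf KO libraries. The mean was 7.25 ± 1.66 CPM (SD, n = 3) in Batf KO and 12.7 ± 1.52 CPM (SD, n = 4) in wild type, or 57.0% of the wild-type level. The log2 fold change was -0.81 (SE 0.18), and the read ratio was 0.55 with a 95% counting interval of 0.5 to 0.605.

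Ighv3-6 (ENSMUSG00000076672, chromosome 12, 114288152 to 114288582, minus strand) was at 2.79, 3.08 and 3.55 CPM in Batf KO, against 7.42, 5.55, 6.44 and 5.66 CPM in wild type. These levels rest on 86, 83 and 84 reads in Batf KO and on 296, 167, 288 and 141 reads in wild type. The 3 Batf KO libraries were close to each other, and the highest of them was well below the lowest wild-type library. The mean was 3.14 ± 0.383 CPM (SD, n = 3) in Batf KO and 6.27 ± 0.866 CPM (SD, n = 4) in wild type, which is 50.1% of the wild-type level. The log2 fold change was -1.0 (SE 0.17), and the read ratio was 0.486 with a 95% counting interval of 0.421 to 0.559.

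**Figure D1:**
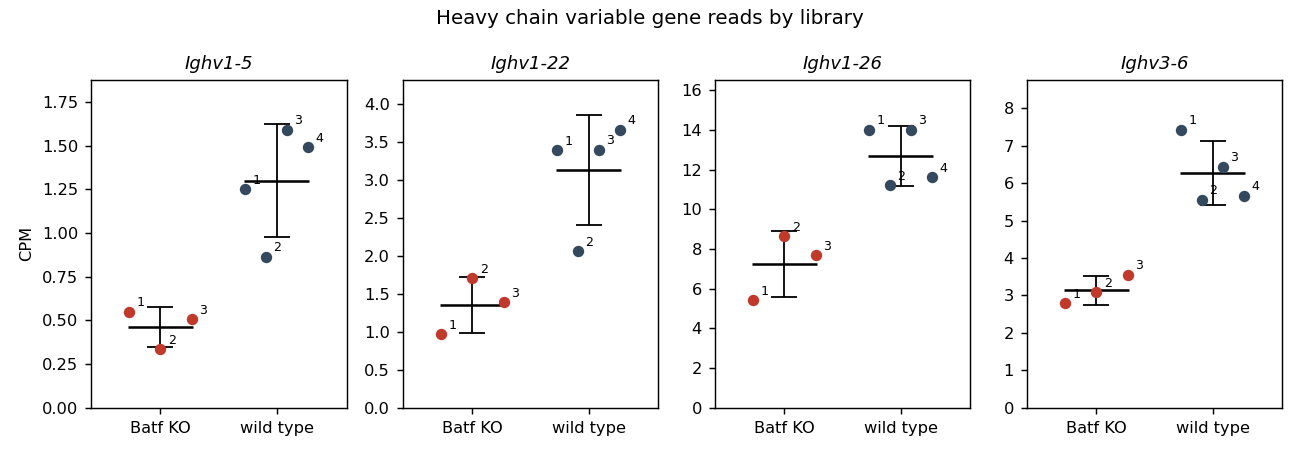
CPM of the 4 heavy chain V genes in each library, with 3 Batf KO libraries on the left of each panel and 4 wild-type libraries on the right. Points are libraries numbered by replicate, and bars give the mean and SD. In each panel the highest Batf KO library lies below the lowest wild-type library (for Ighv1-22, 1.71 CPM in Batf KO against 2.06 CPM in wild type).

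In the authors' deposited table the log2 fold changes are -1.48 for Ighv1-5, -1.21 for Ighv1-22, -0.82 for Ighv1-26 and -1.01 for Ighv3-6. The FDR in the authors' deposited table is 0.000128 for Ighv3-6, 0.000772 for Ighv1-26, 0.00128 for Ighv1-5 and 0.00187 for Ighv1-22, the last of the 4 by that order. The next V gene of the locus, Ighv6-3, has an FDR of 0.00451 in the authors' deposited table and a log2 fold change of -0.89 there.

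Per kb of annotated exon, the order of levels was the same in both genotypes. Ighv1-26 stood at 20.7 CPM per kb in Batf KO and 36.2 CPM per kb in wild type. Ighv3-6 followed with 8.97 CPM per kb in Batf KO and 17.9 CPM per kb in wild type. Ighv1-22 gave 3.87 CPM per kb in Batf KO and 8.9 CPM per kb in wild type, and Ighv1-5 gave 1.17 CPM per kb in Batf KO and 3.29 CPM per kb in wild type. In both genotypes each gap between neighbours in this order was larger than the SD of either gene. Ighm, whose exons are shared by the transcripts of most V genes at this stage, stood at 637 CPM per kb in Batf KO and 866 CPM per kb in wild type.

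The spread between libraries of 1 genotype does not use the difference between the genotypes. It does enter the FDR that chose these 4 genes and the other listed genes, so it is not independent of that choice. It was measured as the chi-square statistic per degree of freedom against reads proportional to library size, where 1 is the spread that counting alone gives on average. In Batf KO it was 0.786 for Ighv1-5 and 1.25 for Ighv3-6, close to counting error, but 2.94 for Ighv1-22 and 11.2 for Ighv1-26. In wild type it was 2.61 for Ighv1-5, 4.03 for Ighv3-6, 4.99 for Ighv1-22 and 5.99 for Ighv1-26. Over the 278 listed genes with a mean of 0.5 to 20 CPM, the median was 2.47 in Batf KO (quartiles 0.926 and 6.95) and 4.13 in wild type (quartiles 1.7 and 9.73). The 4 V genes thus lay between these quartiles in wild type. In Batf KO, Ighv1-5 lay below them and Ighv1-26 above them. At a given relative spread this statistic grows with the number of reads, and Ighv1-26 had the most reads of the 4.

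Ighm (ENSMUSG00000076617, chromosome 12, 113418558 to 113422730, minus strand) was itself lower in Batf KO, at 1280.0, 1199 and 1127 CPM, against 1487, 1572, 1893 and 1583 CPM in wild type. The groups did not overlap, and the Batf KO mean was 73.6% of the wild-type mean (log2 fold change -0.44, SE 0.09). Each V gene was therefore set against Ighm in the same library, as V gene reads per 1000 Ighm reads. These ratios reuse the counts by which the genes were chosen. A gene with few reads needs a larger fold difference than Ighm to pass the FDR threshold, so that choice favoured lower ratios. They are given as descriptions.

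Ighv1-5 gave 0.431, 0.279 and 0.45 reads per 1000 Ighm reads in Batf KO, against 0.843, 0.55, 0.838 and 0.939 in wild type. Each Batf KO library was below each wild-type library on this scale. The log2 difference of the ratio was -1.04, so the Batf KO mean was 48.7% of the wild-type mean.

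Ighv3-6 gave 2.18, 2.57 and 3.15 reads per 1000 Ighm reads in Batf KO, against 4.99, 3.53, 3.4 and 3.58 in wild type. The groups did not overlap here either, although Batf KO replicate 3 came near to 3 of the 4 wild-type libraries. The log2 difference of the ratio was -0.56. It was -0.43 without wild-type replicate 1, which held the highest ratio.

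Ighv1-22 gave 0.76, 1.42 and 1.24 reads per 1000 Ighm reads in Batf KO, against 2.28, 1.31, 1.8 and 2.31 in wild type. The groups overlapped, since Batf KO replicate 2 lay above wild-type replicate 2. The log2 difference of the ratio was -0.77, and it was -0.50 without Batf KO replicate 1.

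Ighv1-26 gave 4.23, 7.21 and 6.82 reads per 1000 Ighm reads in Batf KO, against 9.41, 7.14, 7.42 and 7.31 in wild type. Batf KO replicate 2 lay above wild-type replicate 2 and close to wild-type replicates 3 and 4, so the groups overlapped. The log2 difference of the ratio was -0.39, and without Batf KO replicate 1 it was -0.15. Relative to Ighm, the lower level of Ighv1-26 thus rested largely on that library.

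**Figure D2:**
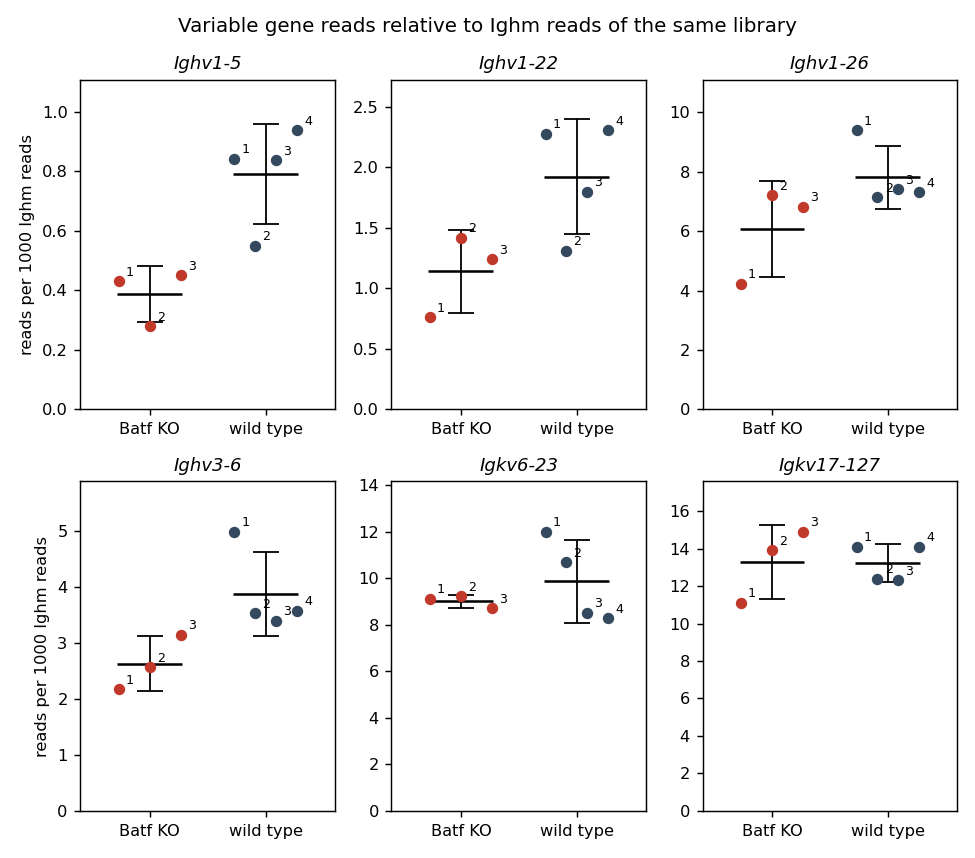
Reads of the 4 heavy chain V genes and of 2 kappa light chain V genes per 1000 Ighm reads of the same library, with Batf KO on the left and wild type on the right. Points are libraries numbered by replicate, and bars give the mean and SD. The groups are apart for Ighv1-5 and Ighv3-6 and overlap for Ighv1-22, Ighv1-26, Igkv6-23 and Igkv17-127.

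Summed over the 4 genes, the level was 9.73, 13.8 and 13.1 CPM in Batf KO, against 26.1, 19.7, 25.5 and 22.4 CPM in wild type. Batf KO replicate 1 was lowest and wild-type replicate 1 highest. The log2 fold change of the sum was -0.94. Per 1000 Ighm reads the sum was 7.6, 11.5 and 11.7 in Batf KO, against 17.5, 12.5, 13.5 and 14.1 in wild type. The groups did not overlap, but Batf KO replicate 3 and wild-type replicate 2 were close to each other, and the log2 difference was -0.51.

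The table also holds 10 other heavy chain V genes, which are listed because they passed the same FDR threshold. V genes outside the table have no value, so how far the pattern extended cannot be told. All 10 were lower in Batf KO, with log2 fold changes from -1.24 (Ighv3-1) to -0.76 (Ighv1-18) and a median of -0.91, beside a median of -1.11 for the 4 genes. Over the 368 listed genes that were lower the median was -0.73, and over all 752 listed genes it was 0.31. Groups did not overlap in CPM for 9 of the 10, the exception being Ighv2-5, at 0.579 ± 0.184 CPM (SD, n = 3) in Batf KO and 1.28 ± 0.435 CPM (SD, n = 4) in wild type. All Batf KO libraries were below all wild-type libraries for 362 of the 752 listed genes, of which 368 were lower. The 9 of 10 is therefore not read as a trait of V genes. Per 1000 Ighm reads, 2 of the 10 kept the groups apart. The share of all listed genes that do so on this scale was not computed, so nothing is read from this count. The 2 genes were Ighv3-1, the nearest relative of Ighv3-6, with 0.376 ± 0.14 in Batf KO and 0.635 ± 0.0836 in wild type, and Ighv6-3, with 1.98 ± 0.361 in Batf KO and 2.67 ± 0.131 in wild type (SD, n = 3 and 4). Summed over all 14 V genes, the level was 29.0 ± 4.51 CPM (SD, n = 3) in Batf KO and 54.0 ± 7.02 CPM (SD, n = 4) in wild type.

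Ighv1-18, the nearest relative of Ighv1-26, was at 3.05 ± 0.386 CPM (SD, n = 3) in Batf KO and 5.15 ± 0.866 CPM (SD, n = 4) in wild type. It shares 68 of its 302 windows of 50 bases with Ighv1-26, so the counts of this pair are not fully separate. Both genes were lower in Batf KO.

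The other immunoglobulin segments in the table were lower as well. The joining segment Ighj1, which is copied into the V gene transcript, was at 1.07 ± 0.182 CPM (SD, n = 3) in Batf KO and 2.24 ± 0.148 CPM (SD, n = 4) in wild type (log2 fold change -1.07). Ighj3, another joining segment, was at 2.83 ± 0.803 CPM (SD, n = 3) in Batf KO and 4.84 ± 0.501 CPM (SD, n = 4) in wild type (log2 fold change -0.78). The kappa light chain segments, which lie on chromosome 6, had smaller differences. Their log2 fold changes were -0.56 for Igkv6-23, -0.44 for Igkv17-127 and -0.42 for Igkj5. They had more reads than any listed heavy chain V gene, so smaller differences could pass the FDR threshold. Per 1000 Ighm reads their log2 differences were -0.11, 0.00 and 0.02, and the groups overlapped for all 3.

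The light chain ratios can be compared library by library with those of the heavy chain genes. Igkv17-127 gave 11.1, 13.9 and 14.9 reads per 1000 Ighm reads in Batf KO, against 14.1, 12.4, 12.3 and 14.1 in wild type. Batf KO replicate 1 was again the lowest library, as it was for Ighv1-22, Ighv1-26 and Ighv3-6, but the Batf KO libraries spanned the whole wild-type range. With the listed light chain segments as denominator in place of Ighm, the log2 difference was -1.02 for Ighv1-5, -0.75 for Ighv1-22, -0.37 for Ighv1-26 and -0.54 for Ighv3-6.

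**Figure D3:**
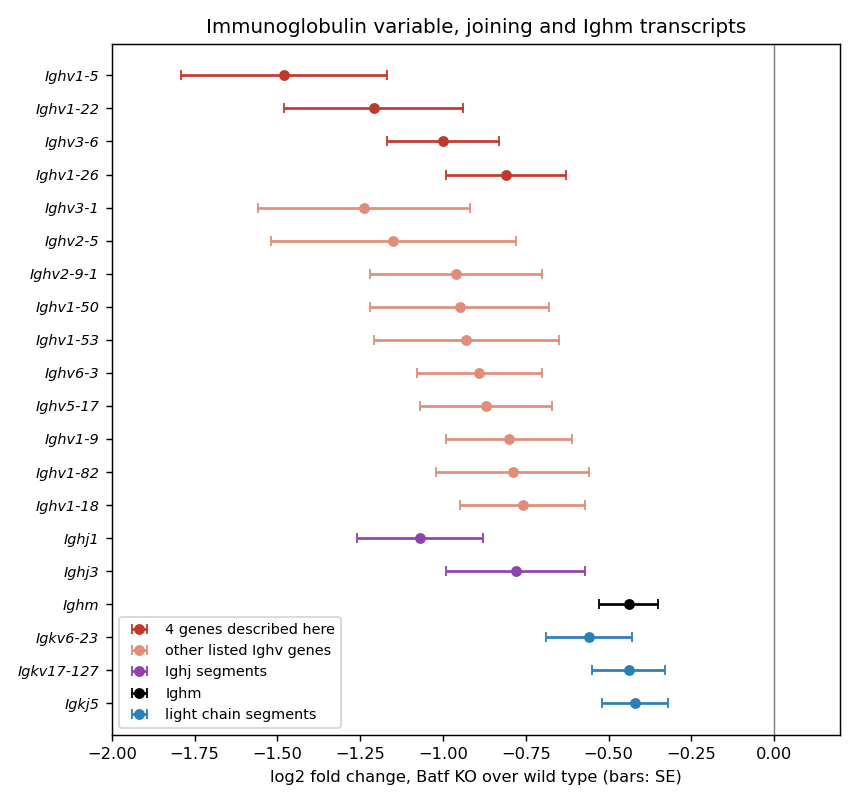
Log2 fold change of Batf KO over wild type for the immunoglobulin variable and joining genes in the table and for Ighm, with bars for the SE (3 Batf KO and 4 wild-type libraries). The heavy chain V genes run from -1.48 (Ighv1-5) to -0.76 (Ighv1-18), farther below 0 than Ighm at -0.44, while the 3 light chain segments run from -0.56 to -0.42. The genes were selected for a difference in this contrast. A gene with few reads needs a larger fold difference to pass the FDR threshold, so the sizes are not compared on equal terms.

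The 7 listed heavy chain constant genes were lower too, with a median log2 fold change of -2.7. Igha had 2 reads over the 3 Batf KO libraries and 418 over the 4 wild-type libraries, and Ighg3 was at 1.16 ± 0.215 CPM (SD, n = 3) in Batf KO and 7.58 ± 1.16 CPM (SD, n = 4) in wild type. Ighm made up nearly all reads of these 7 genes in both genotypes: together they came to 1007 to 1009 reads per 1000 Ighm reads in Batf KO and to 1020.3 to 1026 in wild type. Set against the sum of the 7 genes, the log2 differences of the V genes were therefore much as against Ighm, from -1.02 for Ighv1-5 to -0.37 for Ighv1-26.

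The 4 genes span 501 kb of the 2437 kb over which GENCODE M21 annotates 185 V genes and pseudogenes of the locus. Ighv3-6 lies 865 kb from Ighm, Ighv1-5 1091 kb, Ighv1-22 1324 kb and Ighv1-26 1366 kb. Ighv1-22 and Ighv1-26 are 41.7 kb apart. The 14 listed V genes are scattered from 263 kb to 2530 kb from Ighm, and larger and smaller differences are mixed along the locus. Of the 113 with the annotation type IG_V_gene, 14 are listed, beside 752 of the 19734 genes that the authors adjusted over. By family, 8 of 53 Ighv1 genes, 2 of 9 Ighv2 genes, 2 of 6 Ighv3 genes, 1 of 10 Ighv5 genes and 1 of 5 Ighv6 genes are listed. The remaining V genes have no value in the table, so no count of V genes that did not differ can be given. Batf lies on the same chromosome, 27.7 Mb from Ighm, and the Igh alleles of the mice were not examined.

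**Figure D4:**
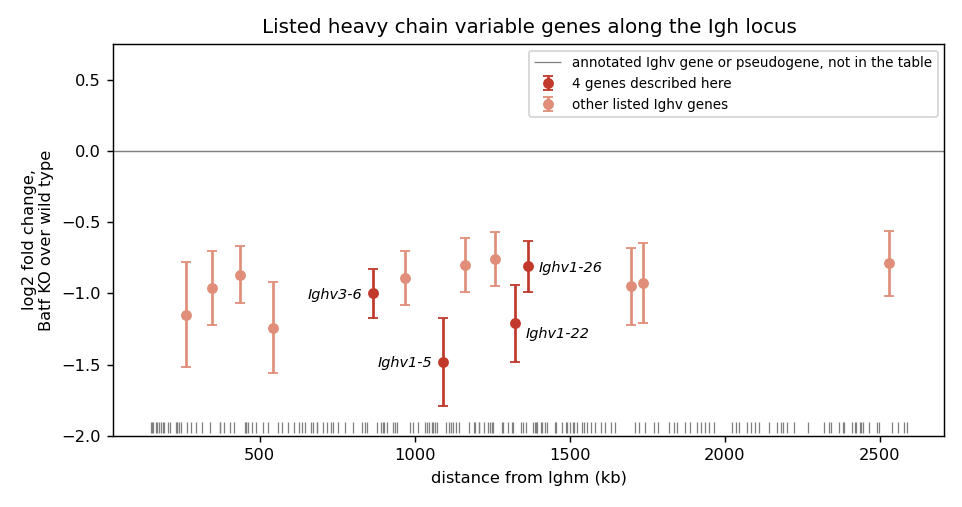
Log2 fold change of Batf KO over wild type for the 14 listed heavy chain V genes (bars give the SE, 3 Batf KO and 4 wild-type libraries) against the distance of each gene from Ighm in kb. Ticks at the bottom mark annotated V genes and pseudogenes that are not in the table. The listed genes lie between 263 and 2530 kb, and all 14 are below 0.

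Among 664 other listed genes with a mean of at least 1 CPM, the closest to the mean profile of the 4 genes over the 7 libraries was Cldnd1, which encodes a claudin domain protein. Closeness was the root mean square difference of centred log2(CPM + 0.5), and it was 0.084 for Cldnd1. Cldnd1 was at 60.3 ± 6.24 CPM (SD, n = 3) in Batf KO and 111 ± 14.3 CPM (SD, n = 4) in wild type. Next came the helicase gene Ddx11 (0.092), the sulfate transporter gene Slc26a11 (0.106), the lysosomal protease gene Ctsh (0.11) and Ighv1-18 (0.117). Ighm ranked 219 of the 664, at 0.288.

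Of 35 transcription factor genes with known roles at immunoglobulin loci or in B cell differentiation, 11 are listed, 5 of them higher and 6 lower in Batf KO. Over all genes, 752 of 19734 are listed, and the lists were not tested against that share. Pou2af1, which encodes the coactivator OCA-B that assists octamer-binding factors at V gene promoters, was lower at 265 ± 26.9 CPM (SD, n = 3) in Batf KO, against 450 ± 14.2 CPM (SD, n = 4) in wild type. Pou2f2, which encodes the octamer-binding factor OCT2, was higher at 232 ± 44.9 CPM (SD, n = 3) in Batf KO, against 175 ± 10.9 CPM (SD, n = 4) in wild type. Irf4, a partner of BATF, Spib, Irf8 and Ikzf1 were higher, with Irf4 at 1442 ± 108 CPM (SD, n = 3) in Batf KO and 662 ± 68.8 CPM (SD, n = 4) in wild type. Foxo1, Bach2, Prdm1, Mef2c and Id2 were lower, with log2 fold changes from -0.86 (Bach2) to -0.31 (Mef2c). The median over the 11 was -0.31.

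Cell type markers also differed beside the V genes. Plasma cells hold large amounts of immunoglobulin RNA, and of 20 plasma cell markers 8 are listed. For this and the other marker lists, the share over all genes is 752 of 19734. Slamf7 and Trib1 were higher in Batf KO, while Prdm1, Derl3, Dnajb9, Sec11c, Atf6 and Cd93 were lower. Their summed level was 368 to 396 CPM in Batf KO and 412 to 463 CPM in wild type, and none of the 8 was at 0. Sec11c, a signal peptidase subunit of the secretory pathway, was at 38.7 ± 3.38 CPM (SD, n = 3) in Batf KO and 82.9 ± 3.11 CPM (SD, n = 4) in wild type. Prdm1, which encodes the plasma cell factor BLIMP1, was at 6.11 ± 0.814 CPM (SD, n = 3) in Batf KO and 10.2 ± 2.57 CPM (SD, n = 4) in wild type. Of the 2 higher markers, Slamf7 was at 152 ± 17.9 CPM (SD, n = 3) in Batf KO and 97.3 ± 15.5 CPM (SD, n = 4) in wild type. Trib1 was at 18.9 ± 2.56 CPM (SD, n = 3) in Batf KO and 10.7 ± 1.31 CPM (SD, n = 4) in wild type.

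Of 13 marginal zone and B1 cell markers, Cd9, Bhlhe41 and Plscr1 were listed as higher and Zbtb32 as lower, with a summed level of 154 to 199 CPM in Batf KO and 134 to 205 CPM in wild type. Of 5 follicular markers, Ccr7 was listed as higher, at 1400 to 1535 CPM in Batf KO and 886 to 942 CPM in wild type. The listed markers of non-B cells included Cd8b1 and Tbx21 of 12 T and NK markers (5.7 to 7.88 CPM summed in Batf KO and 2.81 to 12.6 CPM in wild type). Zbtb46 was listed of 9 myeloid markers (73.6 to 89.6 CPM in Batf KO and 47.4 to 65.6 CPM in wild type). Pf4 was listed of 5 erythroid and platelet markers (0.76 to 1.04 CPM in Batf KO and 0.281 to 0.627 CPM in wild type). Markers outside the table have no value and may still have been expressed, so the number listed does not measure how many non-B cells were present. The part of cell type composition in the V gene levels was not tested.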

How the data were processed

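Libraries from 3 Batf KO and 4 wild-type mice were grouped by the genotype label, and each was taken as 1 mouse. The design text also states 2 replicates per sample without saying what they are. The build mm10 and the tools edgeR 3.03, HTSeq 0.5.3p7 and TopHat2 2.0.6 are named in the submitters' processing notes. Not given in the sources used here are the annotation, the strand setting and the handling of reads with several matches.

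The deposited table holds read counts and CPM values per gene and library, per the file headers. The headers do not name the library total behind the CPM. It also holds the authors' log2 fold change and log2 mean CPM, a likelihood ratio score, a p-value and an FDR, per the file headers. The highest FDR is 0.0499, so the table was selected on the genotype contrast, and 742 of its 752 genes were matched to GENCODE M21 by identifier.

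The effective library size was taken as count over CPM. Log2 fold changes came from edgeR 4.0.16 (R 4.3.3), fitted to the counts of all 752 genes and read as descriptions. Their SE was derived from that fit. These genes were selected on the same contrast, and how that affects the SE was not tested. The SE differed between tools. For Ighv1-5, Ighv1-22, Ighv1-26 and Ighv3-6 it was 0.31, 0.27, 0.18 and 0.17 with edgeR. DESeq2 gave a larger SE, at 0.46, 0.35, 0.21 and 0.22. With limma on log2(CPM + 0.5) it was smaller, at 0.16, 0.2, 0.16 and 0.12. A filter at a mean CPM of 1 had been planned, but Ighv1-5 (mean 0.941 CPM) lies below it, so the fit without the filter is given and the filter was run as an alternative. The edgeR step was tested on simulated data. Ratios to Ighm are means of log2(gene reads / Ighm reads) over libraries. Other tools were limma 3.58.1, DESeq2 1.42.0, Python 3.11.15, scipy 1.17.1 and Biopython 1.88. With 17 or fewer reads of Ighv1-5 in each Batf KO library, depth limits that gene most.

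Named are the 4 genes, the other immunoglobulin genes in the table, the 5 genes closest in profile, and the listed members of the lists of transcription factors and cell type markers. The result of 1 further list is not reported here. The genes and lists were chosen with earlier results of these data known. The mice are the only replicates, and counting intervals cover counting error only.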

Additional observations from a re-analysis of the deposited data

Results flagged for a closer look

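The 4 wild-type libraries of each immunoglobulin gene or sum were searched for a library far from the other 3, with Dixon's ratio above its 95% critical value. Of 57 sets of values, 6 had such a library, where chance gives about 2.9. The sets are not independent, since they reuse the same genes on 2 scales and in sums, and the ratios share the Ighm counts. The 6 is therefore not read as an excess. Batf KO has 3 libraries and was not searched. For Ighv1-22 it was wild-type replicate 2, at 2.06 CPM, below the other 3. The other 5 were all in wild-type replicate 1, as high values per 1000 Ighm reads: 9.41 for Ighv1-26, 4.99 for Ighv3-6, 2.73 for Ighv5-17, 3.58 for Ighj3 and 1026 for the sum of the 7 listed constant genes. In the same library Ighm was at 1487 CPM, the lowest of the 4 wild-type libraries. The cause was not tested.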

How the results depend on the processing

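The log2 fold changes of the 4 genes, of their sum and of their ratios to Ighm were recomputed under the alternatives that apply to each, and none of the values obtained changed sign. The tools and scalings were changed for the single genes only, and the mean CPM filter leaves no value for Ighv1-5. Of these values, 111 stayed within the SD between replicates and 4 did not, all for Ighv1-5. Leaving out 1 library moves a group mean little against that SD, so staying within it is a weak mark of stability. The ratio of Ighv1-26 to Ighm counted as within the SD of 0.33, though it went from -0.39 to -0.15 without Batf KO replicate 1. The log2 fold change of Ighv1-5, -1.48 as reported, was -0.89 with limma on log2(CPM + 0.5) and -0.89 as a difference of mean log2(CPM + 0.5). It was -1.72 against wild-type libraries 3 and 4 alone and -1.19 against wild-type libraries 1 and 2 alone, a division chosen after seeing the data. A pseudocount of 0.5 is of the size of the Batf KO level of this gene, so these first values understate its change. Leaving out 1 library gave -1.63 to -1.29 for Ighv1-5, -1.41 to -1.01 for Ighv1-22, -0.96 to -0.64 for Ighv1-26 and -1.1 to -0.91 for Ighv3-6. Scaling by the sum of the listed genes shifted the median log2 fold change of all genes by -0.091. For the other immunoglobulin genes, 290 values stayed within that SD and 37 did not, with no change of sign. No paired analysis was possible because the labels number the mice differently in each group. Few reads limit Ighv1-5, and sequence shared with other V genes limits Ighv1-22 and Ighv1-26.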
